A study of Mus musculus with 4 samples.

Results

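TPC20223 is 1 of 4 mouse pancreatic tumour cell lines whose RNA was hybridised to Affymetrix gene arrays, with 1 array per line. It was singled out by measured values: its signals for the keratin genes Krt19 and Krt8 and for Cdh1 were low and those for Col1a1 and Postn were high on these same arrays. Each of 19938 genes was therefore described as the log2 signal of TPC20223 minus the mean of the other 3 lines (TPC18645, K459 and TCPA18654), beside the spread of those 3 lines. Because the line was selected on these values and is a single array, the differences are a description with no test and no p-value. TPC20223 and TPC18645 carry the label TPC (Ela-TGFa, Ptg1a+/CRE and Trp53fl/fl), and K459 and TCPA18654 carry the label TPAC, which adds p65fl/fl to the same alleles. All 4 lines thus share a TGF-α transgene under the elastase promoter, a Cre that acts in the pancreas and floxed p53. The cells were grown out of digested pancreatic tumours in serum and received no treatment; the labels give no sorting or cloning step and no age or sex of the mice, and do not say whether each line came from its own mouse.

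Epithelial tumour cells hold each other through E-cadherin, desmosomes and tight junctions and fill their cytoplasm with simple keratins. In the epithelial-to-mesenchymal transition (EMT), repressors of the Snail, Zeb and Twist families act on such genes, while cells gain other cadherins, contractile proteins and a fibrillar matrix. Pancreatic cancer is known for intermediate states, in which keratins and mesenchymal genes are made by the same cell, and for a dense collagenous stroma that fibroblasts lay down.

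The 3 lines set against TPC20223 were unequally related. TPC18645 (TPC) and TCPA18654 (TPAC) differed at least 2-fold in only 54 genes (0.271% of those compared), whereas K459 differed from them in 866 and 772 genes. TPC20223 differed from TPC18645 in 2244 genes, from K459 in 2175 and from TCPA18654 in 2171. The spread of the 3 lines is therefore mostly the distance of K459 from a closely alike pair, and averaging this pair into 1 line before the comparison gave 1134 genes called higher and 912 called lower, close to the counts below. Rela, which encodes p65, had log2 signals of 10.70 in TPC20223, 11.12 in TPC18645, 10.82 in K459 and 11.10 in TCPA18654. Since the floxed exons are not stated and probes across the whole transcript are summarised, p65 loss cannot be read from it. Tgfa had 7.88 in TPC20223 and 8.90 to 9.07 in the other lines; whether its probes read the transgene is likewise not stated.

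A gene was called when its difference from the mean of the 3 lines was at least 1 on the log2 scale (2-fold) and TPC20223 lay outside their range. By this rule 1143 genes (5.73%) were called higher and 910 (4.56%) lower in TPC20223, and these shares are the background for every group below. The median size of the difference was 1.69 among the higher and 1.54 among the lower genes, against 0.22 over all genes. Differences of at least 4 were seen in 63 higher and 37 lower genes. In 847 of the higher (74.1%) and 588 of the lower genes (64.6%) TPC20223 lay 1 or more from the nearest of the 3 lines. Dip2c, at 1, and Slc22a18, at -1, stood just inside the rule, and Tcf4, at 0.997, and Kng2, at -0.997, just outside; each of these 4 changed its call under 3 or more of the alternatives. Another 24 genes past 1 and 17 past -1 were not called because TPC20223 lay within the range of the 3 lines, as for Lrrn1 (9.19 in TPC20223, 5.20 in TPC18645, 9.64 in K459 and 4.87 in TCPA18654). Over all genes the median difference was -0.05. The arrays carry no detection call. Genes with a mean signal over all 4 lines at or below the 40th percentile (log2 6.96) are termed dim here. By this mean, 327 of the higher and 72 of the lower genes were dim. Because the other 3 lines dominate the mean, a gene bright in TPC20223 alone can be dim, as was Zdbf2 (10.18 against 5.08 to 5.29). A gene low in TPC20223 alone is less readily dim, so these counts depend in part on the definition.

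**Figure D1:**
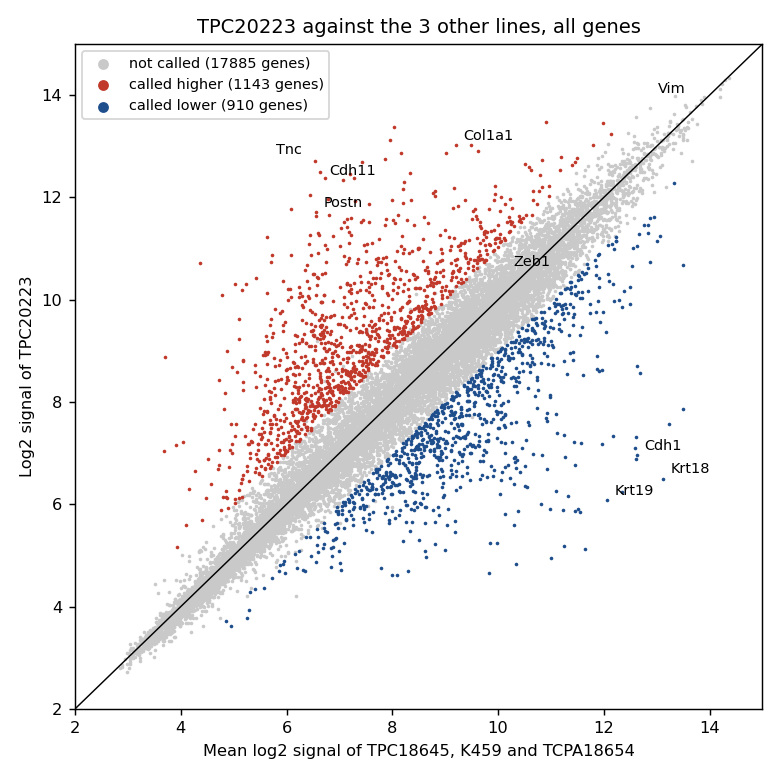
Log2 signal of each of 19938 genes in TPC20223 (vertical axis) against the mean log2 signal of TPC18645, K459 and TCPA18654 (horizontal axis), with 1 array per line and equality on the diagonal. The 1143 genes called higher spread above and the 910 called lower below the diagonal, with Krt18, Krt19 and Cdh1 far below, Tnc, Cdh11 and Postn far above, and Vim and Zeb1 near it.

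The simple keratins, the intermediate filaments of single-layered epithelia such as pancreatic ducts, were the group with the lowest median. Of 7 measured genes 6 were called lower and 0 higher, with a median difference of -4.51 (-4.29 against TPC18645, -5.17 against K459 and -4.24 against TCPA18654). The 6 include Krt8 and Krt19, on which the line was chosen, so their low values were known beforehand. Krt18 had log2 signals of 6.50 in TPC20223, 12.92 in TPC18645, 13.30 in K459 and 13.14 in TCPA18654, the lowest difference of all genes at -6.62 (98.4-fold). Its filament partner Krt8 had 7.87 in TPC20223 and 13.33, 13.72 and 13.44 in the same order of lines, a difference of -5.63 against an SD of 0.20 among the 3 lines. Both partners were thus far below a narrow band formed by the other lines. The duct marker Krt19 had 6.08 in TPC20223, 11.74 in TPC18645, 12.65 in K459 and 11.79 in TCPA18654, a 63.1-fold difference. Krt20, of gastrointestinal epithelium, differed by -4.51 and Krt7, of ducts, by -3.87, and for Krt7 K459 (12.13) was well above TPC18645 (10.02) and TCPA18654 (10.35). Krt23 was dim in all 4 lines and was not called, at -0.87, although it was past 1 in size without TPC18645. Keratins of stratified and basal epithelium took no part in this pattern: 7 of 9 were dim in all 4 lines, their median was -0.10, and the only calls were Krt13 (-1.06) and Krt14 (1.07, with 7.85 in TPC20223 and 6.64 to 6.88 in the others).

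**Figure D2:**
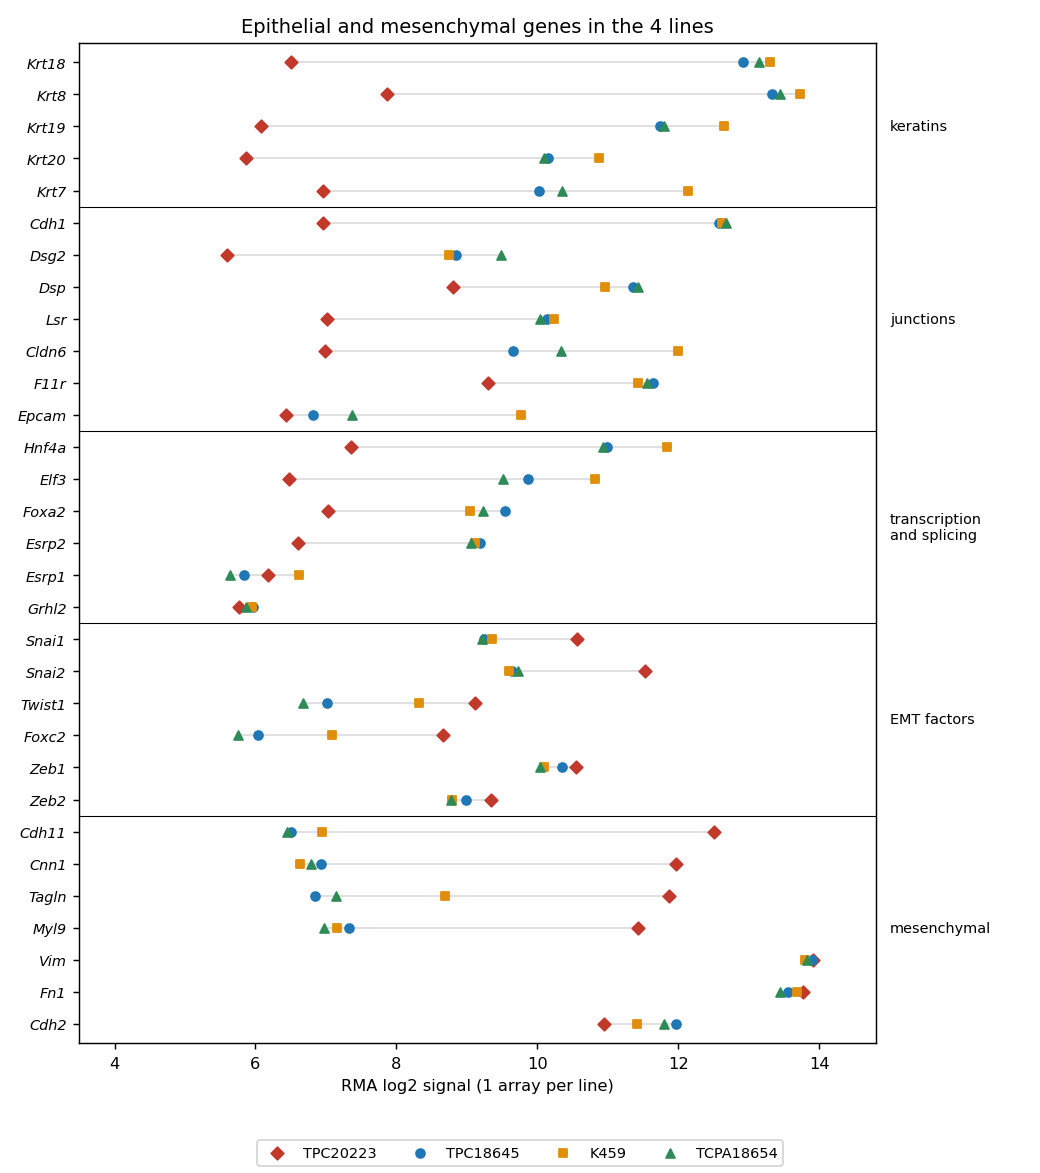
Log2 signal (horizontal axis) of epithelial and mesenchymal genes in TPC20223 (diamonds), TPC18645 (circles), K459 (squares) and TCPA18654 (triangles), 1 array per line, with a grey line from the lowest to the highest line. TPC20223 lies below the other lines for keratins, for the junction genes and for Hnf4a, Elf3, Foxa2 and Esrp2, lies above them for Snai1, Snai2, Cdh11, Cnn1 and Myl9, and lies beside them for Vim, Fn1, Esrp1 and Grhl2.

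Adhesion between cells was the next group. Of 19 genes of adherens junctions and desmosomes 11 were called lower and 0 higher, with a median of -1.07. The 11 include Cdh1, on which the line was chosen. Cdh1, which encodes E-cadherin, had 6.96 in TPC20223, 12.57 in TPC18645, 12.62 in K459 and 12.68 in TCPA18654, a difference of -5.66 with an SD of 0.06 among the 3 lines. The desmosomal cadherin Dsg2 had 5.60 against 8.84, 8.75 and 9.49, and desmoplakin (Dsp), which ties desmosomes to keratins, had 8.80 against 11.36, 10.96 and 11.43. For all of these the 3 lines did not overlap with TPC20223, as the rule for a call requires. The catenins, which link cadherins to the cytoskeleton and also serve N-cadherin, differed less: Ctnna1 by -1.07, Ctnnd1 by -0.59 and Ctnnb1 by -0.53. P-cadherin (Cdh3) lay within the range of the 3 lines. Epcam, an epithelial surface protein, was called lower at -1.56, but K459 alone was bright (9.77), and TPC18645 (6.82) and TCPA18654 (7.37) were near TPC20223 (6.43), so that the call was lost without K459. The call of Ctnna1 was lost by cyclic loess.

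Tight junction and polarity genes gave 13 of 26 called lower and 0 called higher, with a median of -1.08. This median was -1.68 against K459 but -0.77 against TPC18645 and against TCPA18654. The claudin Cldn6 had 6.99 in TPC20223, 9.65 in TPC18645, 12 in K459 and 10.33 in TCPA18654. The lipoprotein receptor Lsr, which builds tricellular junctions, had 7.01 against 10.14, 10.24 and 10.03, and the adhesion molecule F11r had 9.30 against 11.64, 11.43 and 11.56. These genes were low in TPC20223 alone. Other members separated K459 from the rest: Cldn4 had 9.19 in K459 and 6.93 to 7.25 in the other lines, Mal2, of apical transport, had 12.55 in K459 and 6.42 to 7.57 elsewhere, and occludin (Ocln) had 9.77 in K459 and 6.12 to 6.91 elsewhere. Without TPC18645, Cldn4 and Mal2 were called lower, and without K459 the call of Ocln was lost. Among surface proteases and their inhibitors 3 of 11 were called lower, namely the inhibitor Spint2 (-3.75), the protease Tmprss2 (-3.26) and Elf3, which is also counted with the regulators. The matriptase gene St14 was not called and lay within the range of the 3 lines. The median of these 11 genes was -0.52, and it was -0.15 without K459, with 5 calls without TPC18645.

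Regulators of epithelial transcription and splicing gave 11 of 23 called lower and 0 higher, with a median of -0.96. The endodermal factor Hnf4a had 7.35 in TPC20223, 10.99 in TPC18645, 11.84 in K459 and 10.93 in TCPA18654. The ETS factor Elf3 had 6.47 against 9.87, 10.81 and 9.51, and Esrp2, a splicing factor of epithelial cells, had 6.60 against 9.18, 9.12 and 9.06. Foxa2, which opens chromatin in endoderm, differed by -2.24, the pancreatic factor Pdx1 by -2.46 and the endodermal factor Gata6 by -1.19. Of the 23 measured genes 12 were not called. Among them, Grhl2 had 5.77 to 5.96, Esrp1 5.64 to 6.62 and Ovol1 5.78 to 6.29, all dim in all 4 lines, and the ductal factor Sox9 (10.14 to 11.56) and Klf5 (11.11 to 12.11) were bright in all 4. The 5 measured clusters of the miR-200 family and miR-205, which repress Zeb genes, had 0 calls, with Mir200c at 5.70 in TPC20223 and 5.45 to 5.83 in the others. The level of the mature RNA was not measured.

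Snail, Zeb and Twist proteins bind E-boxes, and the E-box CACCTG, whose other strand reads CAGGTG, is the form known from the Cdh1 promoter. Promoter windows from RefSeq (build GRCm38.p6), of 250 bases before to 50 bases after a gene's start, were searched for it on both strands. It stood in 20.2% of all 32851 windows and in 19.6% of the 19177 windows of compared genes. Of 901 windows of genes called lower 29.3% held it, and of 1150 windows of genes called higher 14.5% did. With windows split into 3 by their GC content, the shares in lower, all and higher genes were 21.5%, 17.2% and 14.2% at low, 33.4%, 21.9% and 16.3% at middle and 33.2%, 19.9% and 13.6% at high GC. Other E-boxes, which read the same on both strands, differed less, with CAGCTG in 18.9% of windows of lower, 17.0% of higher and 16.3% of all compared genes, and CACGTG in 8.32%, 7.39% and 8.24%. The AP-1 motif TGACTCA, whose other strand reads TGAGTCA, stood in 8.32% of lower, 4.61% of higher and 4.62% of all compared windows. Several windows can belong to 1 gene, these shares were compared with no test, and a match is a stretch of letters, not a site shown to be bound.

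Of 43 keratin, junction, protease and regulator genes called lower, 28 had a window in the table and 20 of these held the first motif in at least 1 window. Cdh1 and Krt19 had no window. A gene could have several windows, so the shares per window above are no background for this count. The share per gene over all genes was not computed, and more than the background cannot be read from the count. The 250 bases before the start are shown for 5 of the 20 genes that held it: the keratin pair, a tight junction gene, a protease inhibitor and a regulator. They are examples with the motif and not the largest differences of each kind. Cldn6 (-3.67) and Hnf4a (-3.90), which also held the motif in a window, differed more than Lsr (-3.13) and Elf3 (-3.59). The motif is in capitals and each sequence runs 5′ to 3′ on the gene's strand. The windows lie at chr15:102004343-102004592 (Krt8, minus strand), chr15:102027966-102028215 (Krt18, plus), chr7:30973470-30973719 (Lsr, minus), chr7:29281978-29282227 (Spint2, minus) and chr1:135258473-135258722 (Elf3, minus).
Krt8: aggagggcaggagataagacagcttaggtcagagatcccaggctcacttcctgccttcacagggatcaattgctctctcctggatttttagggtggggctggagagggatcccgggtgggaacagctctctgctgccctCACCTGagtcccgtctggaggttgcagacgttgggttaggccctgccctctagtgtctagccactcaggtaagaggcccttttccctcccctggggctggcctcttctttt
Krt18: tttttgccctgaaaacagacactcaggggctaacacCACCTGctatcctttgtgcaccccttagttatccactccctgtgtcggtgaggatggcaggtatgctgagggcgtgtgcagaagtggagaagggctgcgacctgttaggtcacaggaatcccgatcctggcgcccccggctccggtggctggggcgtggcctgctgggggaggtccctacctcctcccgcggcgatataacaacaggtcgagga
Lsr: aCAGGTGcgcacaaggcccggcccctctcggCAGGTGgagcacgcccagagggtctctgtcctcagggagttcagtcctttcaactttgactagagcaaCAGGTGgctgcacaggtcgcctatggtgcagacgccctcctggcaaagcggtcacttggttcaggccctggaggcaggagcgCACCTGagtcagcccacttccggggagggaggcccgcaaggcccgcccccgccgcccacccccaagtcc
Spint2: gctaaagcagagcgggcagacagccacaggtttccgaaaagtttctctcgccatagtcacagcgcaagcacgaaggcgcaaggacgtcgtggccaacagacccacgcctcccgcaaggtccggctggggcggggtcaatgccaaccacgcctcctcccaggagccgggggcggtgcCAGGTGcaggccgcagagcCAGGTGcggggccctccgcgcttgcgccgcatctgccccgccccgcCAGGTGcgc
Elf3: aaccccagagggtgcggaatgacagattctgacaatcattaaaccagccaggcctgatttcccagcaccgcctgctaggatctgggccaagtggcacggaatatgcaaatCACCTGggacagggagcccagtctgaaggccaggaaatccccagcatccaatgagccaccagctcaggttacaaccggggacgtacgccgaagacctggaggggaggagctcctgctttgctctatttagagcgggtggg
The motif began 111 bases before the start in Krt8, 214 in Krt18 and 140 in Elf3. Lsr held it 4 times, at 249, 219, 151 and 69 bases before the start, and Spint2 held it 3 times, at 74, 55 and 9 bases. The windows of Krt20, Foxa2, Tmprss2, Cdx2, Cgn, Cldn2, Cldn18 and Jup, genes that were also called lower, held it 0 times.

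Genes of gastric and intestinal secretion, which pancreatic tumour cells often make, gave 15 of 30 called lower and 0 higher, with a median of -1.01. Gkn2, a gastric mucosal protein, had 5.24 in TPC20223, 9.47 in TPC18645, 10.50 in K459 and 9.98 in TCPA18654. The lectin Lgals4 had 6.16 against 10.19, 13.25 and 10.53, and the membrane mucin Muc1 had 6.63 against 9.56, 11.62 and 10.06. The gel-forming mucin Muc5ac had 5.90 in TPC20223 and was highest in TPC18645 (10.08), with 7.87 in K459 and 9.22 in TCPA18654. K459 was thus the highest of the 3 lines for Gkn2, Lgals4 and Muc1 and the lowest for Muc5ac. That TPC20223 lay below all 3 in these genes is part of the rule for a call. In the whole list 3 genes lay within the range of the 3 lines, and the dim Muc20 (5.82 against 5.64 to 5.73) and Agr3 (3.76 against 3.64 to 3.74) lay above it. The tetraspanin Tspan8 of this list (4.84 against 10.17 to 10.54) was among the 12 genes farthest below all 3 lines. So were the aspartic protease Ctse (6.24 against 12.29 to 12.40), the gastric annexin Anxa10 (5.12 against 11.17 to 12.18) and the gastric junction protein Vsig1 (4.94 against 10.29 to 11.66), which stand in no list. The alarmin Il33, another of the 12, had 5.88 against 11.15 to 11.29. Without K459 the median of the list was -0.54. Agr3, Reg4 and Muc6 were dim in all 4 lines and were not called.

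Among EMT transcription factors 8 of 17 were called higher in TPC20223 and 0 lower, with a median of 0.997. Snai2, the Slug repressor, had 11.52 in TPC20223, 9.64 in TPC18645, 9.59 in K459 and 9.72 in TCPA18654, and Snai1 had 10.56 against 9.24, 9.36 and 9.21. For both Snail genes the 3 lines were close together, with SDs of 0.07 and 0.08. Twist1 had 9.11 against 7.01, 8.32 and 6.67, Foxc2 had 8.66 against 6.04, 7.09 and 5.75, and Sox11 had 9.82 against 6.40, 9.02 and 6.32. In these genes K459 lay between TPC20223 and the alike pair, and K459 was the highest of the 3 lines in 6 of the 8 called factors. The homeobox factors Prrx1 and Prrx2 differed by 1.69 and 1.71 and Tbx3 by 2.14. Zeb1 and Zeb2, the repressors opposed by miR-200, were not called: Zeb1 had 10.55 in TPC20223 and 10.03 to 10.35 in the others, and Zeb2 had 9.34 and 8.77 to 8.99. Twist2 was not called at 0.86, nor was Tcf4, but both were called higher without TPC18645, and Tcf4 also without K459 and by cyclic loess.

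The epithelial name of the other 3 lines held in part. Their keratins and Cdh1 were bright, but genes that are usually read as mesenchymal were bright in them too. Vimentin (Vim) had 13.91 in TPC20223, 13.89 in TPC18645, 13.79 in K459 and 13.83 in TCPA18654, and fibronectin (Fn1) had 13.77, 13.56, 13.68 and 13.44 in that order. N-cadherin (Cdh2) was lowest in TPC20223, at 10.95 against 11.97, 11.41 and 11.80, and the receptor kinase Axl lay within the range of the 3 lines (11.69 against 11.59 to 12.13). They are therefore called keratin-high lines below.

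Of 27 genes of mesenchymal adhesion and the cytoskeleton, 9 were called higher and 1 lower, with a median of 0.38. Cadherin-11 (Cdh11), of mesenchymal cells, had 12.50 in TPC20223, 6.50 in TPC18645, 6.94 in K459 and 6.45 in TCPA18654, a 58.5-fold difference. The contractile proteins calponin (Cnn1, 11.97 against 6.63 to 6.93) and myosin light chain 9 (Myl9, 11.42 against 6.97 to 7.32) were likewise high in TPC20223 alone. Tagln, an actin-binding protein of smooth muscle, had 11.87 against 6.85, 8.69 and 7.14. Smooth muscle actin (Acta2) was bright in every line, with 13.24 in TPC20223 and 11.66 to 12.64 in the others, and was called at 1.11, a call lost without K459. The collagen receptor subunit Itga11 differed by 3.07 and the fibronectin receptor subunit Itga5 by 1.58. Nt5e, which encodes the ectonucleotidase CD73, was the only member called lower (7.84 against 8.91 to 9.73).

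Fibrillar matrix and collagen processing genes formed the longest list and held the largest number of calls among the gene lists. Their share of calls was below that of the simple keratins (85.7%). Of 45 fibrillar matrix genes 28 (62.2%) were called higher and 0 lower, and 43 of 45 differences were above 0. Their median was 1.29 against the mean of the 3 lines, 1.29 against TPC18645, 1.19 against K459 and 1.58 against TCPA18654. The 28 include Col1a1 and Postn, on which the line was chosen. Col1a1, the main chain of type I collagen, had 13.02 in TPC20223, 8.53 in TPC18645, 10.36 in K459 and 8.72 in TCPA18654. Col1a2, the other chain, had 10.95 against 7.64, 9.76 and 7.69. The microfibrillar collagen Col6a3 had 11.59 against 7.13, 7.24 and 7.27. Type I collagen was thus graded over the lines and Col6a3 was high in TPC20223 alone.

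The adhesion-modulating glycoprotein tenascin-C (Tnc) had 12.71 in TPC20223, 5.53 in TPC18645, 8.38 in K459 and 5.72 in TCPA18654, the largest difference of the list at 6.17. Periostin (Postn), which binds collagen, had 11.71 against 5.99, 8.55 and 5.15, and the fibrillin Fbn2 had 10.99 against 6.52, 7.39 and 6.37. Lysyl oxidase (Lox), which crosslinks collagen, had 12.87 against 6.20, 11.85 and 6.43, so that K459 lay 1.02 below TPC20223 and far above the alike pair. K459 was the highest of the 3 lines in 21 of the 28 called matrix genes. Over all genes called higher K459 was the highest of the 3 in 618 (54.1%), TPC18645 in 283 (24.8%) and TCPA18654 in 242 (21.2%). Over all genes called lower K459 was the lowest of the 3 in 409 (44.9%), TCPA18654 in 290 (31.9%) and TPC18645 in 211 (23.2%). An even split is not the background for these shares, since TPC18645 and TCPA18654 resemble each other. Matrix genes outside the pattern were Fbln2 (12.11 against 11.93 to 12.34), the small proteoglycan Dcn (9.35 against 11.03, 8.57 and 10.99; called lower without K459) and Sparc, which was bright in all 4 lines and differed by 0.64.

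**Figure D3:**
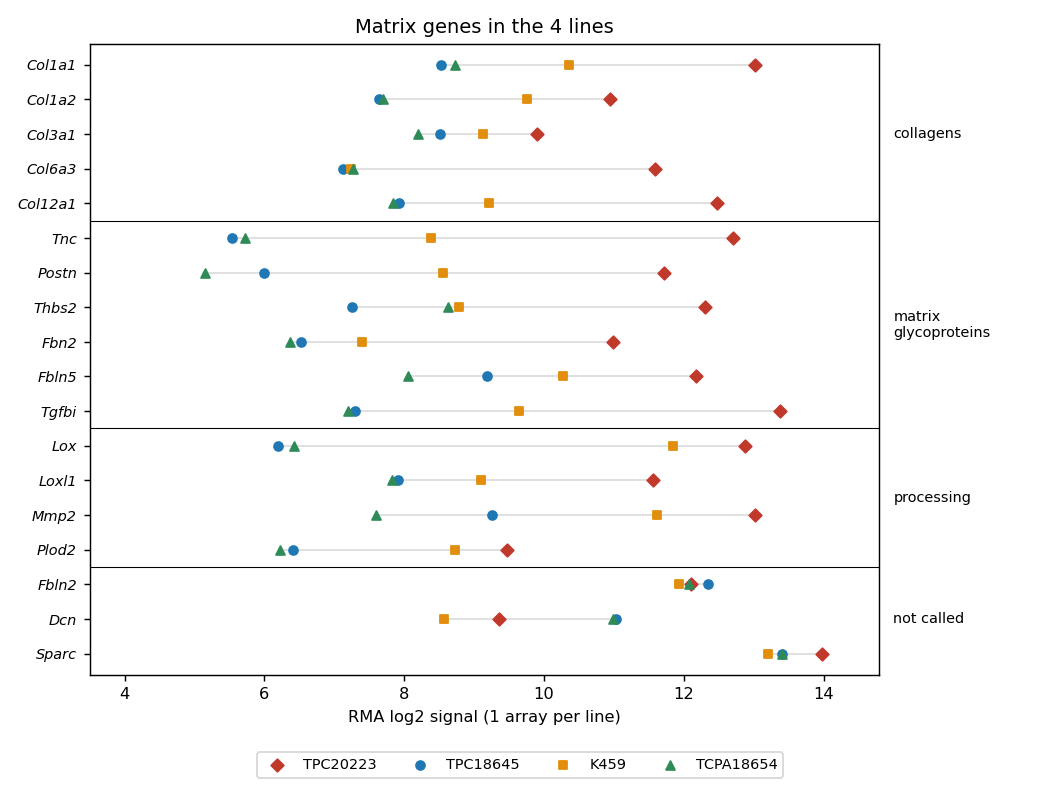
Log2 signal (horizontal axis) of collagens, matrix glycoproteins, processing enzymes and 3 genes that were not called, in TPC20223 (diamonds), TPC18645 (circles), K459 (squares) and TCPA18654 (triangles), 1 array per line. TPC20223 is highest for every called gene, as the rule for a call requires. K459 stands between TPC20223 and the other pair for Col1a1, Tnc, Postn and Lox but with the pair for Col6a3.

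Basement membrane genes and integrins moved both ways, with 6 of 27 called higher, 6 lower and a median of 0.07. The lower members serve epithelial attachment: Itga2, a collagen receptor subunit, had 7.88 in TPC20223 and 10.17, 11.71 and 10.34 in TPC18645, K459 and TCPA18654. Itgb4, of hemidesmosomes, had 7.56 against 9.67, 9.83 and 9.61, and the laminin chain Lamb3 had 6.92 against 8.98, 8.70 and 8.78. The higher members were the laminin chains Lama4 (10.21 against 6.41, 8.78 and 6.44) and Lama2 (8.65 against 5.83 to 6.15), nidogen 2 (Nid2, 10.95 against 7.15 to 7.93), the integrin subunit Itga8, the collagen chain Col4a2 and the proteoglycan Hspg2, whose call was lost without K459. The laminin chain Lama5, of epithelial basement membranes, was lower by -1.52. Both directions thus occurred within the laminins.

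Of 24 matrix proteases and inhibitors 13 were called higher and 2 lower, with a median of 1.11. The gelatinase Mmp2 had 13.02 in TPC20223, 9.26 in TPC18645, 11.62 in K459 and 7.60 in TCPA18654. The other gelatinase, Mmp9, had 8.80 against 6.33, 6.49 and 6.32, and the collagenase Mmp13 had 11.20 against 9.29, 8.89 and 9.32. The inhibitor Timp1 was higher as well (12.23 against 10.94 to 10.98). The stromelysin Mmp3 went the other way, with 7.10 against 10.96, 10.22 and 10.20, and so did the urokinase receptor Plaur (9.13 against 10.45 to 11.28).

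Growth factor systems differed in direction. Of 14 ligands and receptors of the EGF family, to which the TGF-α of the transgene belongs, 6 were called lower and 0 higher, with a median of -0.76. Hbegf had 9.07 in TPC20223, 11.01 in TPC18645, 11.11 in K459 and 10.97 in TCPA18654, the ligand Btc differed by -1.87 and the ligand Ereg by -1.74. The receptor Egfr had 10.21 against 11.68, 10.89 and 11.49 and Erbb3 had 6.72 against 8.04, 9.44 and 7.84. Erbb2 lay within the range of the 3 lines, and the call of Egfr was lost without TPC18645. Among 15 MAPK feedback and ETS genes 5 were called lower and 1 higher, with a median of -0.28. The ERK phosphatase Dusp6 had 8.98 against 11.14, 11.87 and 11.22, Dusp4 differed by -2.16, Dusp5 by -1.83, Phlda1 by -1.81 and Spry2 by -1.21, the last of which was not called without K459. The exception was Etv1, whose 9.39 in TPC20223 was beside the 9.38 of K459 and whose call was lost when arrays were set to a common median.

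Mesenchymal growth factor signalling gave 15 of 33 called higher and 4 lower, with a median of 0.85. Fgfr2, a receptor for fibroblast growth factors, had 10.86 in TPC20223, 7.19 in TPC18645, 6.94 in K459 and 7.15 in TCPA18654. Its ligands Fgf10 (8.45 against 5.51 to 5.77) and Fgf7 (11.58 against 8.24 to 10.51) were higher too, as was Fgfr1 (2.20). The binding protein Igfbp2 had 11.57 against 8.31, 7.80 and 7.55, while Igfbp3 had 9.98 against 12.27, 11.45 and 11.94. Among platelet-derived factors the receptor Pdgfra was higher (10.32 against 7.72 to 8.32) and the ligand Pdgfb lower (8.59 against 9.58 to 10.82). Met, the receptor for hepatocyte growth factor, was called lower at -1.02, a call lost by cyclic loess, without TPC18645, without TCPA18654 and with this pair averaged. Over the alternatives 2 to 6 genes of the list were called lower, with 2 without TPC18645, 3 without TCPA18654 and 6 without K459.

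In the TGF-beta and activin pathway 6 of 30 genes were called higher and 1 lower, with a median of 0.15. Tgfbi, a matrix protein induced by TGF-beta, had 13.38 in TPC20223, 7.29 in TPC18645, 9.64 in K459 and 7.19 in TCPA18654. The activin chain Inhbb differed by 1.65, the activin antagonist Fst by 1.85 and the pseudoreceptor Bambi by 1.38. The ligand Tgfb1 (10.67 against 10.95 to 11.08) and the receptor Tgfbr2 (11.14 against 10.58 to 11.22) were not called, nor were the target genes Ccn2 (-0.98) and Smad7 (-0.87). Ccn2 was called lower with arrays set to a common median and without TCPA18654. Bmp7, a ligand of epithelia, was called lower at -1.18, a call lost without K459. Without TCPA18654, 3 genes of the pathway were called lower.

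**Figure D4:**
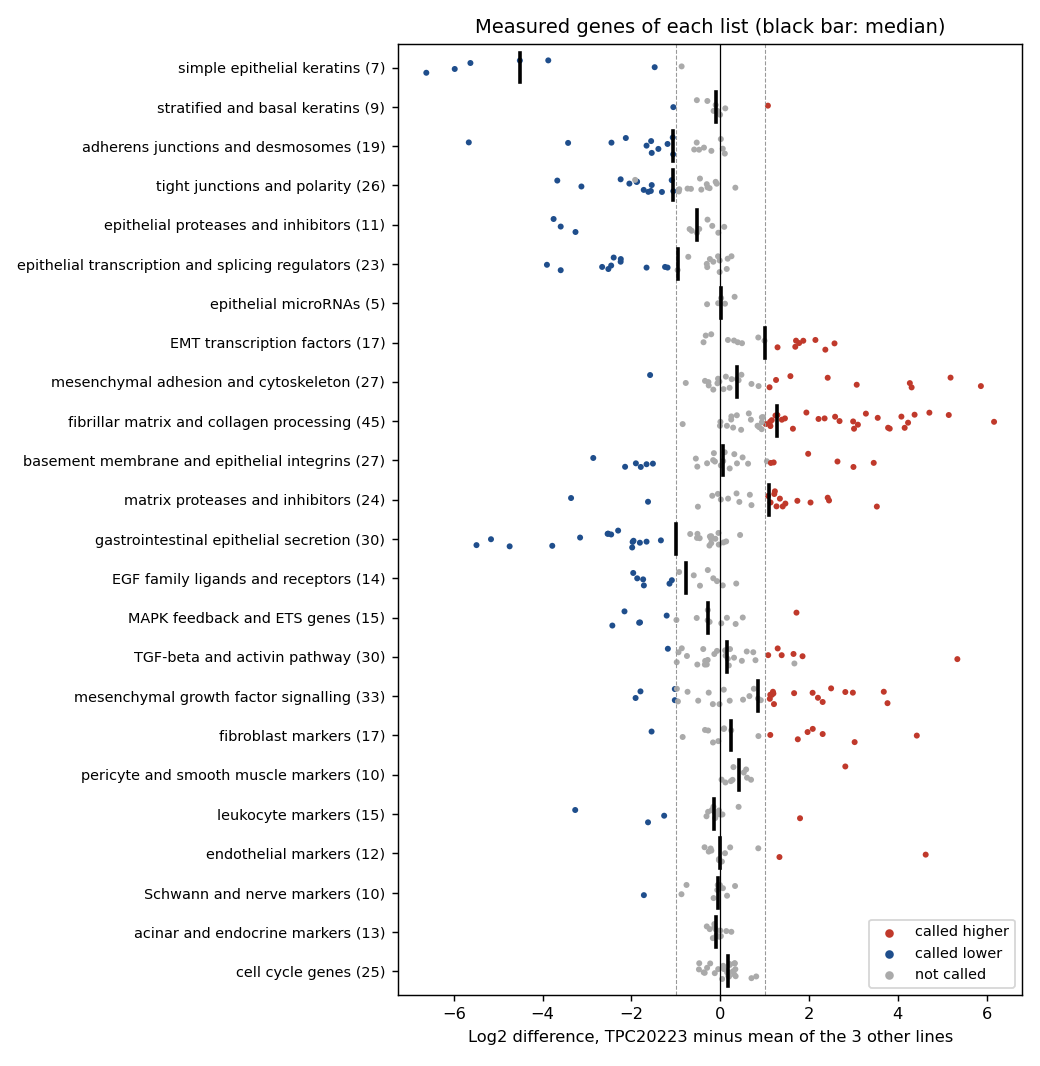
Log2 difference of TPC20223 from the mean of TPC18645, K459 and TCPA18654 (horizontal axis) for the measured genes of 24 lists, 1 point per gene, with the number measured in parentheses, a black bar at the median and dashed lines at -1 and 1. The simple keratin, junction, regulator, secretion and EGF family lists hold lower calls and no higher ones, the EMT factors and the fibrillar matrix hold higher calls and no lower ones, and the cell cycle genes hold no calls.

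Because the cultures were not described as sorted, markers of other cell types in a pancreatic tumour were read beside these groups; in bulk RNA, fewer cells of a type and less RNA per cell cannot be told apart. Of 17 fibroblast markers 7 were called higher and 1 lower, with a median of 0.25. Cd34, a surface protein of fibroblast and vascular precursors, had 11.51 in TPC20223, 6.31 in TPC18645, 7.77 in K459 and 7.17 in TCPA18654. Podoplanin (Pdpn) had 11.62 against 9.46, 7.21 and 9.11, and the mesodermal factors Meox1 and Meox2 differed by 1.97 and 2.08. Other members named for fibroblasts did not follow: Fap had 4.65 against 4.62 to 4.78 and Lum 4.72 against 4.27 to 4.65, both dim in all 4 lines, Thy1 was brightest in K459 (8.86 against 7.23 in TPC20223), and Dpt was bright in K459 alone (8.81), its lower call being lost without K459. The mean signal over the 17 genes was 8.13 in TPC20223, 7.28 in TPC18645, 7.23 in K459 and 7.28 in TCPA18654. Of these genes 5 (Dcn, Lum, Thy1, Pdgfra and Pdgfrb) also stand in other lists here. Whether TPC20223 holds tumour cells with a mesenchymal programme, or cells of another origin, was not tested, and recombination of the floxed alleles was not analysed here.

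Pericyte and smooth muscle markers gave 1 call of 10, Cspg4 (10.15 against 6.93 to 7.63), with a median of 0.41 and all 10 differences above 0. The smooth muscle marker Myh11 and the pericyte marker Rgs5 were dim in all 4 lines. The contractile genes Cnn1, Myl9, Tagln and Acta2, called higher above, are counted with the mesenchymal genes and not in this list. Of 12 endothelial markers Eng, a TGF-beta co-receptor, had 11.92 against 7.20 to 7.39 and the receptor Tek 7.15 against 5.80 to 5.85, but the defining genes Pecam1 (6.02 against 5.97 to 6.10) and Cdh5 (6.13 against 6.32 to 6.65) were dim in all 4 lines. Of 15 leukocyte markers 11 were dim in all 4, Ptprc, the pan-leukocyte gene, among them (5.81 against 5.61 to 6.02). The lower calls were Cd14 (6.66 against 9.59 to 10.53), Cd68 (6.66 against 7.66 to 8.60) and Itgb2 (6.56 against 6.85 to 8.35). The higher call was Fcer1g (7.98 against 6.09 to 6.33). Acinar and endocrine markers had 0 calls of 13 and a median of -0.10, and Schwann and nerve markers had 1 of 10, Erbb3, which is also counted with the EGF receptors. The list means of leukocyte markers were 6.28 in TPC20223 and 6.54 to 6.67 in the other lines, and those of endothelial markers were 7.07 and 6.52 to 6.63.

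Cell cycle genes were alike across the lines. Of 25 measured genes 0 were called, with a median of 0.18 and differences from -0.48 (Ccnb2) to 0.81 (Mcm2). The proliferation marker Mki67 had 11.01 in TPC20223, 10.40 in TPC18645, 10.98 in K459 and 10.63 in TCPA18654.

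Several of the genes farthest above the 3 lines belong to no EMT list, and the groups in this paragraph and the next were formed after the values were seen. The farthest was Slc25a31, a mitochondrial ADP/ATP carrier of germ cells, with 10.72 in TPC20223, 4.41 in TPC18645, 4.13 in K459 and 4.52 in TCPA18654. The chemokine Cxcl14 had 12.37 against 6.62 to 6.83, the amino acid transporter Slc38a4 had 12.04 against 6.36 to 6.56, and the glutamate receptor subunit Gria3 had 10.31 against 5.22 to 5.26. Slc38a4, Zdbf2 and Dlk1 are imprinted genes, and all 3 stood among the 12 genes farthest above the other lines. Of 24 measured imprinted genes 13 were called higher and 1 lower, with a median of 1.69. Dlk1, a growth regulator of fetal tissue, had 13.13 against 7.73, 8.27 and 7.85. Mest had 12.70 against 7.02, 8.42 and 6.82, Grb10 had 12.37 against 6.28, 9.22 and 6.32, Peg10 had 12.75 against 6.09, 10.08 and 7.44 and Sgce had 11.90 against 5.98, 11.38 and 7.22. K459 was the highest of the 3 keratin-high lines in 10 of the 13. The placental growth restrainer Phlda2 was the 1 member called lower (7.38 against 9.28 to 10.76).

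Of 37 HOX genes, which record position along the body axis, 16 were called higher and 0 lower, with a median of 0.75. The C cluster held more of these 16 calls than any other cluster, with 8 of 9 higher and a median of 2.84. Called higher were 2 of 10 in the A, 3 of 9 in the B and 3 of 9 in the D cluster. Hoxc12 had 10.88 in TPC20223, 6.38 in TPC18645, 6.40 in K459 and 6.63 in TCPA18654, and Hoxc6 had 8.98 against 5.52 to 5.71. Members of the other clusters that were far above the 3 lines were Hoxb9 (10.33 against 7.08 to 7.23), Hoxd13 (9.28 against 6.06 to 6.35) and Hoxb13 (9.10 against 6.35 to 6.50). In the keratin-high lines all 9 genes of the C cluster were dim. Neighbouring genes share a locus and are not independent.

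Xist, the RNA of the inactive X chromosome, had 11.23 in TPC20223 and 5.42 to 5.76 in the other lines. The Y-linked genes Uty and Eif2s3y were bright in K459 alone, with 7.59 and 7.36 against 4.37 and 4.21 in TPC20223. The labels give no sex for the mice, and its part in the differences was not tested. Of 742 genes on the X chromosome 87 (11.7%) were called higher and 8 (1.08%) lower, against 5.73% and 4.56% of all genes.

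Medians by chromosome, taken over genes that were not dim, also differed between TPC20223 and the other lines. Against a median of -0.05 over all 11957 such genes, that of chromosome 10 was -0.41, of chromosome 16 -0.40, of chromosome 19 -0.36 and of chromosome 18 -0.28. Chromosomes 13, 4, 6 and 15 had medians of 0.31, 0.28, 0.21 and 0.21. On chromosomes 10, 19, 13 and 6 the medians against each of the 3 lines lay close together, for instance 0.30, 0.32 and 0.32 on chromosome 13, whereas on chromosome 16 the median was -0.54 against TPC18645, -0.48 against TCPA18654 and -0.17 against K459. Chromosome 15, which holds the HOX C cluster and the genes Krt8 and Krt18, had 11.6% of its genes called higher and 3.46% lower.

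**Figure D5:**
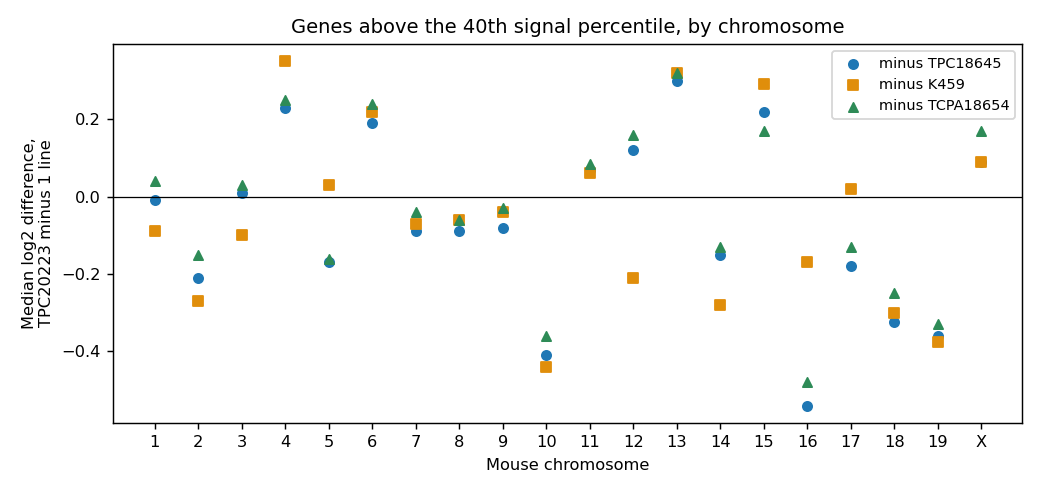
Median log2 difference of TPC20223 from TPC18645 (circles), K459 (squares) and TCPA18654 (triangles), taken over genes above the 40th percentile of signal on each mouse chromosome (horizontal axis). The 3 symbols fall close together at about -0.41 on chromosome 10 and 0.31 on chromosome 13 and apart on chromosomes 12 and 16.

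Where a called gene had further transcript clusters on the array, these mostly lay on the same side. They did so in 52 of 55 higher genes (94.5%, median 1.30) and in 33 of 36 lower genes (91.7%, median -1.07). Of 7152 clusters with no symbol or several, 98 (1.37%) were called higher and 139 (1.94%) lower, and their genes are not named here.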

How the data were processed

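Total RNA of 4 mouse pancreatic tumour cell lines was hybridised to Affymetrix gene arrays, 1 array per line. The deposited values are log2 signals per transcript cluster, which the authors made by RMA (background correction, a common distribution for all arrays and a summary over probes); the software, by the submitters' processing notes, was Affymetrix Expression Console 1.4. RMA removes differences in total RNA between lines and compresses those of dim genes. Array medians were 7.19 to 7.26. The number of arrays limits the precision, and the spread given is that between lines, which may be related.

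Of 28941 clusters, 21789 carried 1 gene symbol, 1621 several and 5531 none here, and 21698 of the first matched the RefSeq gene table (GRCm38.p6) by Entrez number, with 0 symbols changed. A gene was represented by its cluster of highest mean signal. Differences, SDs of the 3 other lines and calls were computed in Python 3.11.15 with numpy 2.4.6 and pandas 2.3.3, and the steps were tested on simulated data. As alternatives, array medians were set equal, or cyclic loess (limma 3.58.1, R 4.3.3), the mean of a gene's clusters, a filter at the 40th percentile or the median of the 3 lines was used, each of the 3 was left out, thresholds were changed and, chosen after seeing the data, TPC18645 and TCPA18654 were averaged into 1 line.

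The comparison, the gene lists and the motifs were chosen with earlier results of these data known. The rule for names covered the 5 genes named at the start, the genes of the alleles and 2 kinds of extremes. These were the members of each list farthest outside the 3 lines (up to 4 in each direction) and the 12 genes farthest outside them over all genes, in each direction. Not every gene under the rule is described. Among the 12 in each direction, Sptssb (-6.06), Gsta4 (-5.71), Sprr1a (-5.66), Fndc3c1 (5.33), Naalad2 (5.18) and Ct55 (5.14) were left out above. Genes named beyond the rule were chosen with their values known. HOX, imprinted and sex chromosome genes were grouped after the values were seen. Some genes of the alleles and of the lists were not analysed here.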

Additional observations from a re-analysis of the deposited data

How the results depend on the processing

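Over the alternatives that keep the call rule and all genes, 1072 to 1233 genes were called higher and 819 to 978 lower. With dim genes left out, 816 were called higher and 838 lower. This filter uses the mean over all lines, so it removes genes bright in TPC20223 alone more readily than genes low in it alone. With a log2 difference of 0.58 the counts were 2064 and 2009, with 2 they were 428 and 259, and with a distance of 1 to the nearest line they were 847 and 588. Leaving out 1 of the 3 lines gave 1125 to 1216 higher and 897 to 957 lower genes. List medians that moved by more than their spread over the 3 lines follow. With a common median per array, the EGF family was at -0.81 and mesenchymal growth factors at 0.80. By cyclic loess, adherens junctions were at -0.99, the EGF family at -0.69 and growth factors at 0.93. With the median of the 3 lines, regulators were at -1.15, gastrointestinal secretion at -0.46, the EGF family at -0.73, growth factors at 0.78 and acinar markers at 0.01. With dim genes left out, simple keratins were at -5.07, regulators at -2.24, secretion at -2.14, the EGF family at -1.12, growth factors at 0.80, fibroblast markers at 1.13, pericyte markers at 0.60, leukocyte markers at -1.63, endothelial markers at 0.22, Schwann markers at -0.76 and acinar markers at 0.075. Fewer genes were then in most lists, and these medians follow in part from which genes the filter keeps. With TPC18645 and TCPA18654 averaged, regulators were at -0.75, the EGF family at -0.83 and growth factors at 0.74. Leaving out each of the 3 lines gave -0.85 to -0.72 for regulators, -1.22 to -0.54 for secretion, -0.89 to -0.61 for the EGF family, 0.79 to 0.97 for growth factors, -0.0075 to 0.15 for the TGF-beta pathway, -0.10 to 0.10 for microRNAs and -0.13 to 0.005 for acinar markers. No list median past 1 in size changed sign under these alternatives. Of 246 single genes followed, 150 were called, 135 of them under every one of the 9 alternatives for genes in which the gene was kept. Dim genes such as Zdbf2 and Foxc2 were absent when dim genes were left out, and were judged on the other alternatives only. Of 96 not called 84 were called under none. The cause of the other changes was not tested. Many of the followed genes were chosen as extremes or with their values known, so these counts do not stand for all called genes.

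With 1 array per line, the spread between arrays of 1 line is unknown, and signal over background is not given, so differences of dim genes are inexact. No paired analysis was made, because the labels state no pairing of the lines. The replicate numbers of the lines were given in accession order and not by the labels. The result comes from no test.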
